A study of Sus scrofa with 20 samples.

Results

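XBP1, MANF, CRELD2, HYOU1, CANX and ERO1A are 6 genes of the endoplasmic reticulum stress response, and their transcripts were followed in pig heart after 3 protocols of coronary ischemia. They were chosen as the probe sets whose gene symbol in the platform's probe table is one of these names, which gave 11 probe sets for 6 genes among 23999 tested probe sets and 6765 genes with a single symbol. CANX had 6 probe sets and each of the other genes had 1. Values are log2 hybridization signals, so a difference of 1 is a doubling of signal.

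The heart samples came from female pigs (Sus scrofa) and formed 4 groups of 5. Controls were sham-operated. SWOP, the classical second window of preconditioning, was 2 coronary occlusions of 10 min, each with 10 min of reperfusion, and was sampled after 24 h of reperfusion. RCO, repeated coronary occlusion, gave that same stimulus 6 times at 12 h intervals (the sample labels speak of 6 episodes of 10 min). RCS, repeated coronary stenosis, was 90 min of low-flow ischemia, also given 6 times at 12 h intervals. All groups share sex and tissue, with no other agent or genetic change given in the labels. For the region of the heart and the time from the last RCO or RCS episode to sampling, the sources used here give nothing. Nothing in the labels ties an array to a named animal, so p-values measure the spread between these samples.

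The endoplasmic reticulum folds secreted and membrane proteins, and an excess of unfolded protein there starts the unfolded protein response. IRE1, PERK and ATF6 sense the stress in the membrane. IRE1 splices XBP1 mRNA into the form that encodes an active transcription factor, PERK slows translation and favours ATF4, and ATF6 is cleaved to release another factor. XBP1 and ATF6 raise genes for chaperones, protein entry and degradation. In the heart this response is known to follow ischemia, reperfusion and hypertrophy. A probe set signal does not separate spliced from unspliced XBP1, and none of the values here is a protein level.

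The 20 array medians lay from 6.75 to 6.82. The deposited values were already processed, so near-equal medians do not measure array quality. Cardiomyocyte markers were bright on every array, as in MYL2, the ventricular myosin light chain, at a control mean of 14.88. RCO was the most uneven group. The lowest Pearson's r between 2 arrays of a group was 0.959 in RCO and from 0.985 to 0.991 in the others. RCO replicates 2 and 3 lay at 43.96 and 29.37 on the first principal component of all probe sets, inside the RCS range of 26.38 to 64.30, while RCO replicates 1, 4 and 5 lay from −18.34 to −3.56. RCO results are therefore also given without replicates 2 and 3 for the 6 genes and for part of the other named genes. That was a choice made after seeing the data, and a value not given may have changed too. These 2 arrays were picked for lying near RCS. Leaving them out therefore tends to widen RCS against RCO and to shrink RCO against control. RCO replicate 1 and SWOP replicate 1 had mean spike-in signals of 11.05 and 10.87 against 10.18 to 10.60 on the others.

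After repeated stenosis all 6 genes rose over the sham controls, and for each gene the lowest RCS array lay above the highest control array. The rise was 5.11-fold for CRELD2, 2.82-fold for HYOU1, 2.57-fold for MANF, 2.13-fold for ERO1A, 1.82-fold for XBP1 and 1.35-fold for CANX. In this comparison 28.8% of all 6765 genes were higher and 25.7% lower, and 23.3% of genes had every RCS array above every control array, so a count of 6 of 6 is read against a large general change. The median difference of the 6 genes was 1.22 against 0.00 over all genes. After repeated occlusion 4 of the 6 rose, XBP1, MANF, CRELD2 and ERO1A, at a background of 11.3% of genes higher and 4.26% lower. HYOU1 and CANX did not pass. Those 4 genes were also the ones with no overlap between RCO and control arrays, which held for 5.81% of all genes. The median difference of the 6 genes was 0.55 against 0.01.

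After the single SWOP session none of the 6 passed in limma's test with Benjamini-Hochberg adjustment, where 4.66% of all genes were higher and 3.5% lower. At an unadjusted p under 0.05, 3 of the 6 were higher and 1 was lower, where 16.5% of all genes were higher and 11.9% lower. With array weights 4 passed, XBP1, MANF, HYOU1 and CANX, all higher, where 11.1% of all probe sets were higher and 12.7% lower. With SWOP and control fitted alone 4 passed, XBP1, MANF and CRELD2 higher and ERO1A lower, where 8.46% of probe sets were higher and 8.59% lower. In the fit used here those shares were 3.01% and 4.14%. Of all probe sets that passed here, 42.1% were higher on the deposited scale and 57.2% once the array medians had been set equal. The median difference of the 6 genes was 0.31 against 0.04. SWOP, RCO and RCS are all compared with the same 5 control arrays, so these comparisons are not independent of one another.

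**Figure D1:**
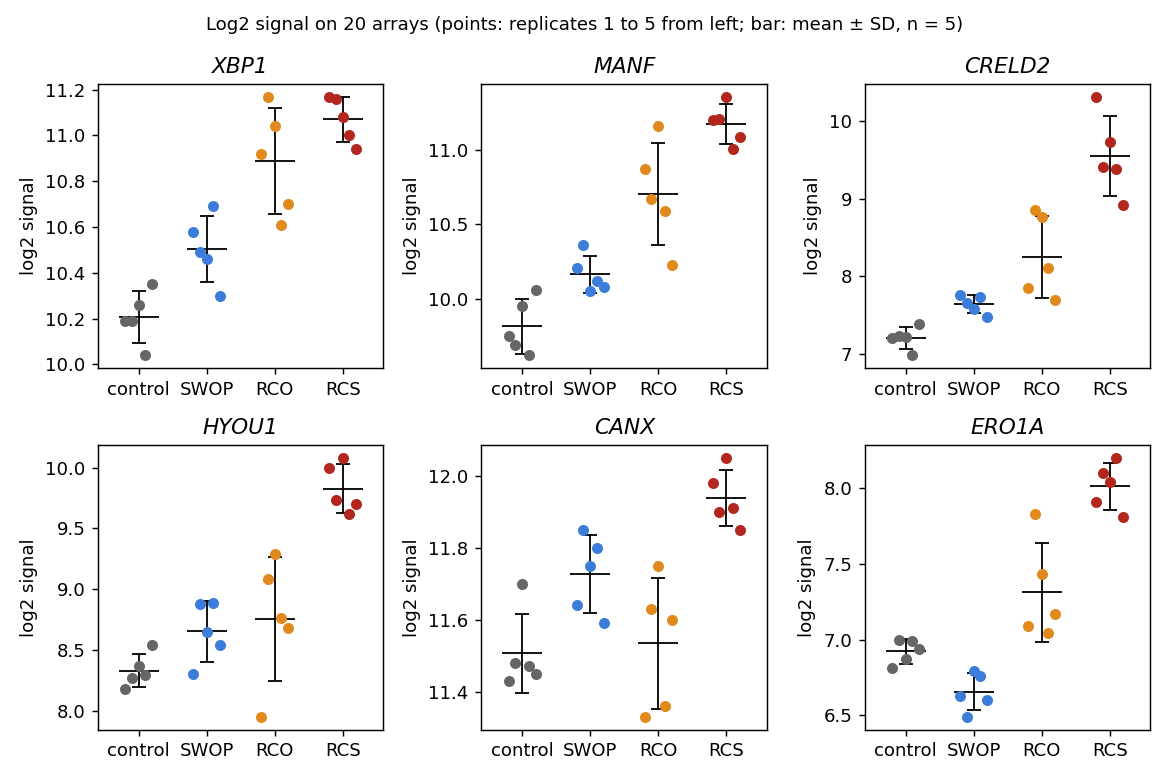
Log2 signal of XBP1, MANF, CRELD2, HYOU1, CANX (brightest probe set) and ERO1A on 20 arrays, 1 panel a gene. Points are arrays by group (5 each), bars are group means ± SD, and each panel has its own y axis; CRELD2 goes from a control mean of 7.20 to an RCS mean of 9.55, while CANX stays between 11.51 and 11.94.

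XBP1 encodes the transcription factor of the IRE1 branch. In controls it was at 10.19, 10.19, 10.26, 10.04 and 10.35, and in SWOP at 10.58, 10.49, 10.46, 10.69 and 10.30. In RCO it was at 10.92, 11.17, 11.04, 10.61 and 10.70, and in RCS at 11.17, 11.16, 11.08, 11.00 and 10.94. Every RCO and RCS array was above every control array, and 4 of 5 SWOP arrays were. Control, SWOP, RCO and RCS means were 10.21 ± 0.11, 10.50 ± 0.15, 10.89 ± 0.23 and 11.07 ± 0.10 (SD, n = 5). Relative to controls XBP1 rose by 0.86 ± 0.10 in RCS (SE; limma adjusted p = 3.6e-06) and by 0.68 ± 0.10 in RCO (1.60-fold; limma adjusted p = 0.00076). Without RCO replicates 2 and 3 the RCO difference was 0.54 (limma adjusted p = 0.0062). SWOP stood 0.30 above controls and did not pass (limma adjusted p = 0.071).

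MANF encodes a small soluble protein of the endoplasmic reticulum that is secreted under stress. Its control arrays were at 9.75, 9.69, 9.95, 9.62 and 10.06, and its SWOP arrays at 10.21, 10.36, 10.05, 10.12 and 10.08. RCO arrays were at 10.87, 10.67, 11.16, 10.59 and 10.23, and RCS arrays at 11.20, 11.21, 11.36, 11.01 and 11.09. The RCO arrays covered the widest range, with replicate 5 near SWOP and replicate 3 among the RCS values. Means were 9.81 ± 0.18, 10.16 ± 0.13, 10.70 ± 0.34 and 11.17 ± 0.13 (SD, n = 5) in control, SWOP, RCO and RCS. MANF rose by 1.36 ± 0.13 in RCS and by 0.89 ± 0.13 in RCO (SE; limma adjusted p = 8.2e-07 and 0.00076). The RCO difference without replicates 2 and 3 was 0.75 (limma adjusted p = 0.0049), and SWOP stood 0.35 above controls without passing (limma adjusted p = 0.098).

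CRELD2 encodes an endoplasmic reticulum protein with EGF-like domains that is known as a target of the stress response. It was at 7.20, 7.23, 7.22, 6.98 and 7.38 in controls and at 7.76, 7.66, 7.58, 7.73 and 7.48 in SWOP. RCO arrays were at 7.85, 8.85, 8.76, 8.11 and 7.69, and RCS arrays at 10.32, 9.41, 9.74, 9.38 and 8.92. No SWOP, RCO or RCS array was as low as the highest control. RCO replicates 2 and 3 were the highest of their group, and RCS replicate 5 was close to them. Means were 7.20 ± 0.14, 7.64 ± 0.11, 8.25 ± 0.53 and 9.55 ± 0.52 (SD, n = 5), and the rise in RCS was 2.35 ± 0.22 (SE; limma adjusted p = 6.6e-07). Its 95% interval of 1.89 to 2.81 lay above the upper bounds of the other 5 genes, of which HYOU1 had the highest at 1.87. The RCO rise was 1.05 (2.07-fold; limma adjusted p = 0.0056), and without RCO replicates 2 and 3 it was 0.68 and did not pass (limma adjusted p = 0.059). SWOP stood 0.44 above controls with no overlap between the arrays, which held for 9.64% of all genes, and did not pass (limma adjusted p = 0.21).

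HYOU1 encodes a large HSP70-related chaperone that helps the main chaperone HSPA5 exchange its nucleotide. Control arrays were at 8.18, 8.27, 8.37, 8.29 and 8.54, and SWOP arrays at 8.30, 8.88, 8.65, 8.89 and 8.54. RCO arrays were at 7.95, 9.08, 9.29, 8.76 and 8.68, and RCS arrays at 10.00, 9.73, 10.08, 9.62 and 9.70. RCO replicate 1, an array of high spike-in signal, was the lowest of all 20, and its other 4 arrays were above every control. Means were 8.33 ± 0.14, 8.65 ± 0.25, 8.75 ± 0.51 and 9.83 ± 0.20 (SD, n = 5), and the rise in RCS was 1.496 ± 0.18 (SE; limma adjusted p = 5.4e-06). RCO stood 0.42 above controls and did not pass (limma adjusted p = 0.14). Without RCO replicate 1 the difference was 0.62 and passed (limma adjusted p = 0.008), while without RCO replicates 2 and 3 it was 0.13 (limma adjusted p = 0.73). SWOP stood 0.32 above controls (limma adjusted p = 0.26).

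CANX encodes calnexin, the membrane lectin that holds new glycoproteins during folding. On its brightest probe set, Ssc.21107.2.S1_at, controls were at 11.43, 11.48, 11.70, 11.47 and 11.45, and SWOP arrays at 11.64, 11.85, 11.75, 11.80 and 11.59. RCO arrays were at 11.33, 11.63, 11.75, 11.36 and 11.60, and RCS arrays at 11.98, 11.90, 12.05, 11.91 and 11.85. RCO arrays lay on both sides of the controls, and the lowest RCS array equalled the highest SWOP array. Means were 11.51 ± 0.11, 11.73 ± 0.11, 11.53 ± 0.18 and 11.94 ± 0.08 (SD, n = 5). The rise in RCS was 0.43 ± 0.09 (SE; limma adjusted p = 5e-04), the smallest of the 6 genes. RCO stood 0.03 above controls with a 95% interval from −0.15 to 0.21 (limma adjusted p = 0.87). That sign turned under quantile normalization (−0.07) and without RCO replicates 2 and 3 (−0.08). SWOP stood 0.22 above controls (limma adjusted p = 0.11).

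The other CANX probe sets did not all follow the brightest. From brighter to dimmer, Ssc.960.1.S1_at rose by 0.61 in RCS and Ssc.21107.3.A1_at by 0.53 (limma adjusted p = 0.0044 and 0.00067). Ssc.13502.1.S1_at stood 0.09 above controls and did not pass (limma adjusted p = 0.48). Ssc.960.2.S1_at rose by 0.29 (limma adjusted p = 0.0058), and the dimmest, Ssc.21107.1.S1_at, fell by 0.32 (limma adjusted p = 0.029). That fall passed in 4 of 10 fits that left out 1 array (adjusted p up to 0.071). In all, 4 of the 6 CANX probe sets rose, 1 fell and 1 did not pass, where 19.3% of all probe sets rose and 28.2% fell. The dimmest had a mean signal of 4.69, at the 17.9th percentile of all probe sets, and the brightest 11.68, at the 97.9th. In RCO none of the 6 passed, with differences from −0.25 to 0.17. The array does not say which CANX transcript each probe set reports.

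**Figure D2:**
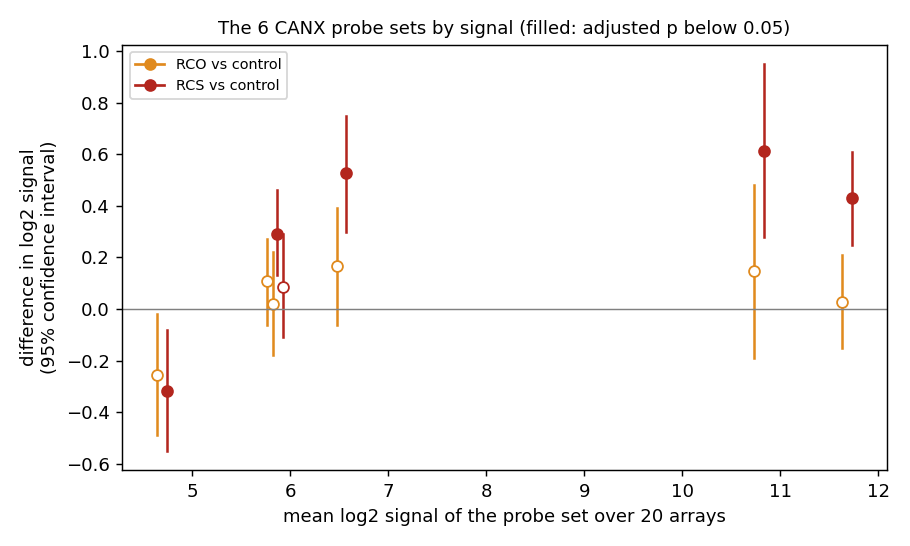
Difference from the control mean (log2, y axis, with 95% intervals) for the 6 CANX probe sets in RCO and RCS, against the mean log2 signal of the probe set over 20 arrays (x axis); RCO points are drawn slightly left and RCS points slightly right of that mean, and filled points passed at an adjusted p of 0.05. The RCS points go from 0.61 for Ssc.960.1.S1_at to −0.32 for the dimmest probe set.

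ERO1A encodes the oxidase that passes oxidizing power to protein disulfide isomerases, and it is also known as a gene raised by hypoxia. Its control arrays were at 6.81, 7.0, 6.87, 6.99 and 6.94, and its SWOP arrays at 6.63, 6.49, 6.79, 6.76 and 6.60. RCO arrays were at 7.09, 7.83, 7.43, 7.04 and 7.17, and RCS arrays at 7.91, 8.10, 8.04, 8.20 and 7.81. It was the gene of the 6 with SWOP below controls, and no SWOP array reached the lowest control, a pattern found in 5.42% of all genes. Means were 6.92 ± 0.08, 6.65 ± 0.12, 7.31 ± 0.33 and 8.01 ± 0.15 (SD, n = 5). The SWOP difference was −0.27 and did not pass (limma adjusted p = 0.16). ERO1A rose by 1.09 ± 0.12 in RCS (SE; limma adjusted p = 2.3e-06). It rose by 0.39 in RCO (limma adjusted p = 0.043), a call that was lost without any 1 of the 5 controls (adjusted p from 0.06 to 0.089). It was also lost without RCO replicate 2 (0.26, limma adjusted p = 0.096), replicate 3 (0.36, limma adjusted p = 0.11) or both (0.18, limma adjusted p = 0.30), under array weights (0.32, limma adjusted p = 0.078) and with the 2 groups fitted alone (limma adjusted p = 0.15).

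The order of the group means was control, SWOP, RCO, RCS for XBP1, MANF, CRELD2 and HYOU1. CANX went control, RCO, SWOP, RCS, and ERO1A went SWOP, control, RCO, RCS. RCS was highest for all 6 genes. Neighbours in these orders that did not pass were control and SWOP in XBP1, MANF, CRELD2, HYOU1 and ERO1A, SWOP and RCO in CRELD2, HYOU1 and CANX, control and RCO in CANX, RCO and RCS in XBP1, and SWOP and RCS in CANX. In all 6 genes RCO had the largest SD of the 4 groups.

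Setting repeated stenosis against repeated occlusion, with the same number of sessions and interval, 5 of the 6 genes were higher in RCS. All genes gave 11.7% higher and 9.9% lower in this comparison. CRELD2 was 1.30 higher in RCS (2.47-fold; limma adjusted p = 0.0018) and HYOU1 1.07 higher (2.11-fold; limma adjusted p = 0.0017). ERO1A was 0.70 higher and CANX 0.40 higher (limma adjusted p = 0.0018 and 0.0049). CRELD2, HYOU1 and CANX had no overlap between RCS and RCO arrays, which held for 3.52% of all genes, while ERO1A overlapped by the 7.83 of RCO replicate 2 against the 7.81 of RCS replicate 5. MANF was 0.47 higher (limma adjusted p = 0.02), a call lost without RCO replicate 5 (0.35, limma adjusted p = 0.059) or RCS replicate 3 (0.42, limma adjusted p = 0.061) or with the 2 groups fitted alone (limma adjusted p = 0.085). XBP1 was 0.18 higher with a 95% interval from −0.03 to 0.39 and did not pass (limma adjusted p = 0.20). Without RCO replicates 2 and 3 all 6 genes passed, with XBP1 at 0.33 (limma adjusted p = 0.015). Those 2 arrays were picked for lying near RCS, so this count is no separate support. The 2 protocols differ in the kind and length of ischemia together, so those cannot be told apart.

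Against the single SWOP session, repeated occlusion gave 3 of 6 genes higher where 5.54% of all genes were higher and 6.4% lower. ERO1A was 0.66 higher and the only 1 of the 6 with no overlap, a pattern found in 3.28% of all genes (limma adjusted p = 0.0041). MANF was 0.54 and XBP1 0.38 higher (limma adjusted p = 0.016 and 0.023). Without RCO replicates 2 and 3 only ERO1A passed (0.45, limma adjusted p = 0.013), with MANF at 0.40, XBP1 at 0.24, CRELD2 at 0.24, HYOU1 at −0.19 and CANX at −0.30. With the 2 groups fitted alone MANF and XBP1 lost their calls (limma adjusted p = 0.065 and 0.089). The XBP1 call was also lost under array weights (limma adjusted p = 0.053) and without RCO replicate 2 or 3 or SWOP replicate 2, 3 or 5 (adjusted p from 0.05 to 0.07). CRELD2 was 0.61 higher without passing (limma adjusted p = 0.081) and passed without RCO replicate 1 (0.71, limma adjusted p = 0.048) or 5 (0.75, limma adjusted p = 0.034) and under array weights (0.64, limma adjusted p = 0.03). HYOU1 differed by 0.10, and by −0.03 without RCO replicate 3. CANX stood 0.19 lower in RCO (limma adjusted p = 0.77 and 0.15 for HYOU1 and CANX).

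Repeated stenosis against SWOP gave 5 of 6 genes higher where 20.3% of all genes were higher and 17.7% lower. CRELD2 was 1.91 higher, ERO1A 1.36, HYOU1 1.17, MANF 1.01 and XBP1 0.57 (limma adjusted p from 1.8e-06 to 0.00035). These 5 had no overlap between the arrays, as in 17.9% of all genes. CANX was 0.21 higher and did not pass (limma adjusted p = 0.068), though it passed under quantile normalization, array weights and the 2 groups fitted alone (adjusted p from 0.034 to 0.038).

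**Figure D3:**
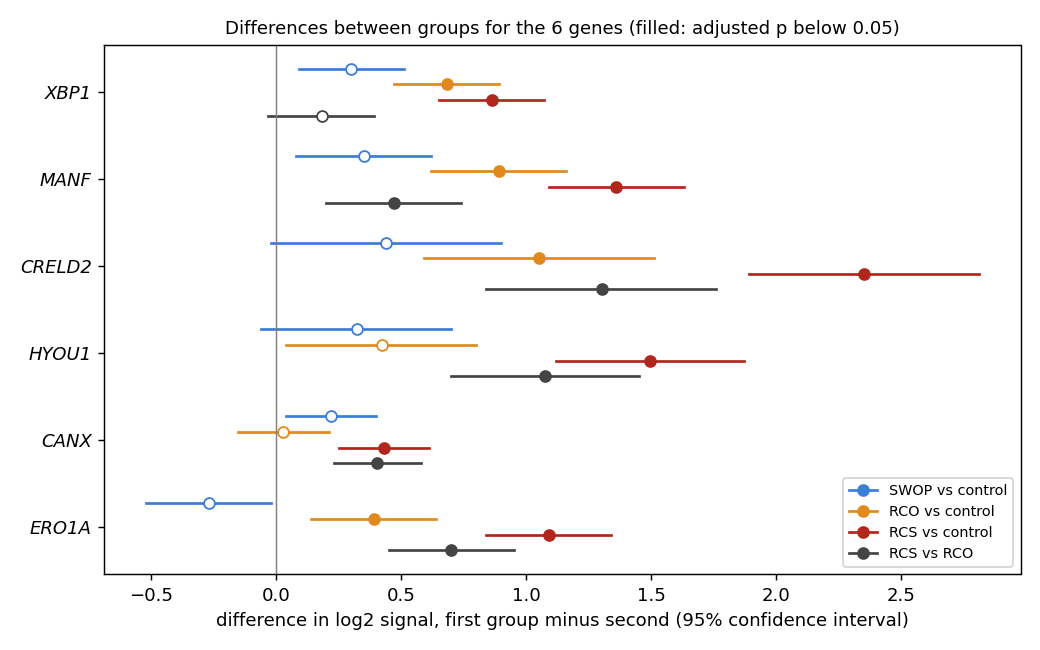
Log2 differences with 95% intervals for the 6 genes in SWOP, RCO and RCS against control and in RCS against RCO (CANX by its brightest probe set); filled points passed at an adjusted p of 0.05. All 6 RCS points pass against control, with CRELD2 farthest out at 2.35, and no SWOP point passes against control.

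The genes around these 6 were followed in 5 lists that held 170 names, of which 105 were measured. Endoplasmic reticulum folding enzymes and chaperones, with 31 measured, had 27 higher and none lower in RCS against control, with a median of 0.88. Of all genes 28.8% were higher and 25.7% lower in that comparison. HSPA5, the main HSP70 chaperone of the compartment, rose by 1.27 ± 0.15 in RCS (SE; limma adjusted p = 3.8e-06). It lay from 11.75 to 11.99 in controls, at 11.83, 12.57, 13.04, 12.64 and 12.49 in RCO, and from 12.97 to 13.33 in RCS. HSP90B1, the HSP90 of the compartment, rose by 0.91, DNAJB11, a cochaperone of HSPA5, by 1.18 and PDIA4, a disulfide isomerase, by 1.36 (limma adjusted p = 1.9e-05, 3.8e-06 and 6.7e-05). FKBP11, a prolyl isomerase, rose 4.74-fold, RCN1, a calcium-binding protein, 4.37-fold and SDF2L1, a partner of HSPA5, 4.35-fold (limma adjusted p = 1.7e-05, 1.8e-05 and 1.4e-05). CALR, PRKCSH, RCN2 and QSOX1 did not pass. CALR, the soluble relative of calnexin, stood 0.60 above controls with an RCS SD of 1.397 (limma adjusted p = 0.36).

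In RCO, where 11.3% of all genes were higher and 4.26% lower, 16 of the 31 folding genes were higher and none lower, with a median of 0.49. With 1 array left out the count ran from 10, without RCO replicate 3, to 22. It was 4 without replicates 2 and 3. HSPA5 rose by 0.64 (limma adjusted p = 0.01) and stood at 0.44 without those 2 arrays (limma adjusted p = 0.079). DNAJB11 rose by 0.69 and RCN1 by 1.496 (limma adjusted p = 0.0041 and 0.0035), and both passed without those arrays (0.49 and 0.88). FKBP11 rose by 1.05 (limma adjusted p = 0.034), a call lost without control replicate 2, 4 or 5 or RCO replicate 2 or 3 (adjusted p from 0.053 to 0.11). Without both RCO arrays FKBP11 stood at 0.40 (limma adjusted p = 0.30). HSP90B1 stood at 0.32, PDIA4 at 0.52 and SDF2L1 at 0.86 and none of these passed (limma adjusted p = 0.10, 0.12 and 0.056). HSP90B1 (limma adjusted p = 0.023) and PDIA4 (0.028) passed without RCO replicate 1, and SDF2L1 (0.038) without RCO replicate 5. These 3 stood at 0.12, 0.11 and 0.63 without RCO replicates 2 and 3. HSP90B1 has another bright probe set, which rose by 0.44 in RCO (limma adjusted p = 0.043) and by 1.13 in RCS (limma adjusted p = 4.5e-06). RCS exceeded RCO in 12 of the 31, where 11.7% of all genes were higher and 9.9% lower. That count was 23 without RCO replicates 2 and 3. With 1 array left out it ran from 6, without RCS replicate 3, to 18. In SWOP, where 4.66% of all genes were higher and 3.5% lower, 1 of 31 passed, no more than that share. It was MLEC, a lectin for new glycoproteins, 0.65 higher (limma adjusted p = 0.0062). The SWOP count was 2 without control replicate 1 or 3 or SWOP replicate 1. The median of the 31 in SWOP was 0.30 against 0.04 over all genes.

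The machinery by which proteins enter the compartment and receive sugars had 28 of 33 measured genes higher and none lower in RCS, with a median of 0.71. Among all genes 28.8% were higher and 25.7% lower in RCS. SEC61B, a subunit of the translocation channel, rose by 1.86, SSR4, of the associated TRAP complex, by 1.43 and SRPRB, of the receptor for the signal recognition particle, by 1.41 (limma adjusted p = 1.9e-06, 9.1e-07 and 2.3e-06). In RCO, where 11.3% of all genes were higher and 4.26% lower, 14 of 33 were higher. SSR4 stood at 1.15, SEC61B at 0.98 and SRPRB at 0.79 (limma adjusted p = 0.00015, 0.0046 and 0.0036). The RCO count ran from 7 to 21 when 1 array was left out, with 8 without control replicate 2 or 4 and 7 without RCO replicate 3. It was 8 without RCO replicates 2 and 3. There SSR4 stood at 1.01, SEC61B at 0.60 and SRPRB at 0.52, and all passed (limma adjusted p = 0.0017, 0.038 and 0.035). RCS exceeded RCO in 13 of 33, where 11.7% of all genes were higher and 9.9% lower. That count ran from 5 to 18 when 1 array was left out. It was 8 without RCO replicate 1 or 4, 6 without RCO replicate 5 and 5 without RCS replicate 3. Without RCO replicates 2 and 3 it was 20. In SWOP, where 4.66% of all genes were higher and 3.5% lower, 7 of 33 were higher. Among them were DAD1, of the oligosaccharide transferase, at 0.40 and SEC61G, of the channel, at 0.59 (limma adjusted p = 0.012 and 0.011). The SWOP count was 3 without control replicate 2 or 4 or SWOP replicate 2, 4 or 5, and 4 without control replicate 5. The median of the 33 in SWOP was 0.28 against 0.04 over all genes.

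Genes of degradation from the compartment had 8 of 17 higher in RCS, where 28.8% of all genes were higher and 25.7% lower. RNF5, a ubiquitin ligase, was lower by 0.18 (limma adjusted p = 0.047), and the list median was 0.18. The RNF5 call held in 2 of 10 fits that left out 1 array (adjusted p up to 0.12). SELENOS, a selenoprotein of the extraction complex, rose by 1.24 and by 0.79 in RCO (limma adjusted p = 1e-06 and 0.0011). Without RCO replicates 2 and 3 the RCO rise of SELENOS was 0.67 (limma adjusted p = 0.011). DNAJB9, a cochaperone and known XBP1 target, rose by 1.02 in RCS (limma adjusted p = 3.9e-05) and stood at 0.37 in RCO without passing (limma adjusted p = 0.12). RCO, where 11.3% of all genes were higher and 4.26% lower, had 3 of 17 higher, and 1 without RCO replicates 2 and 3. SWOP, where 4.66% of all genes were higher and 3.5% lower, had 2 of 17 higher. The SWOP count was 1 without control replicate 2 and 0 without control replicate 4. ATF6, EDEM1, SEL1L and HERPUD1 were not analysed here.

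A list of sensors, transcription factors and other genes of the response had 9 measured, without IRE1, PERK and ATF6. On the brightest probe set of each gene 6 of 9 were higher in RCS and none lower. The 6 were TMBIM6, CREB3L2, RTCB, ATF4, EIF2S1 and ATF6B. With 1 array left out the count ran from 4 to 6. The ATF6B call (0.36, limma adjusted p = 0.045) held in 3 of 10 such fits (adjusted p up to 0.12). The shares of all genes in RCS were 28.8% higher and 25.7% lower. ATF4, the factor of the PERK branch, rose by 0.43 (limma adjusted p = 0.0067) and CREB3L2, a membrane-bound factor of secretory cells, by 1.14 (limma adjusted p = 0.0012). A second, dim ATF4 probe set fell by 0.45 (limma adjusted p = 0.014). In RCO, where 11.3% of all genes were higher and 4.26% lower, 1 of 9 was higher, DDIT3, a count near that share. NFYC was 1 of 9 lower, by 0.31 (limma adjusted p = 0.043). The NFYC call held in 3 of 10 fits that left out 1 array (adjusted p up to 0.11). That call was lost without RCO replicates 2 and 3 (−0.30, limma adjusted p = 0.13). The dimmer NFYC probe set fell by 0.41 in RCO and by 0.45 in RCS (limma adjusted p = 0.0071 and 0.00052). Of 15 ATF4 targets and genes of the integrated stress response, 8 were higher in RCS and 2 in RCO, none lower. The RCO count was near the 11.3% of all genes that were higher in RCO. In RCS 11 of the 15 means lay above controls, with a list median of 0.39. Means of PPP1R15A, PHGDH, SLC3A2 and VLDLR were 9.28, 7.41, 7.96 and 11.53 in controls. In RCS they were 8.99, 7.36, 7.93 and 11.33, and none of these genes passed. CEBPG, a partner of ATF4, rose by 1.05 in RCS (limma adjusted p = 1.8e-06). MTHFD2, a mitochondrial folate enzyme, rose in RCS, RCO and SWOP by 1.28, 0.86 and 0.68 (limma adjusted p = 8.2e-06, 0.003 and 0.021). Without RCO replicates 2 and 3 its RCO rise was 0.77 (limma adjusted p = 0.027). The RCO count of 2 became 5 without RCO replicate 1 or 5. The SWOP count of 1, MTHFD2, stood where 4.66% of all genes were higher, and became 0 without control replicate 2 or SWOP replicate 4.

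DDIT3 and ATF3, stress factors downstream of ATF4, had higher means in RCO than in RCS. DDIT3, also called CHOP, was at 8.03, 7.68, 7.80, 8.33 and 8.19 in controls and at 9.49, 7.91, 9.12, 9.42 and 9.44 in RCO. In RCS it was at 9.71, 7.89, 7.62, 8.05 and 8.25. RCO replicate 2 lay among the controls and RCS replicate 1 above every RCO array. DDIT3 rose by 1.07 in RCO (limma adjusted p = 0.037), a call that held in 2 of 10 fits that left out 1 array, with adjusted p up to 0.089. In RCS it stood 0.30 above controls (limma adjusted p = 0.46). RCS was 0.77 below RCO without passing (limma adjusted p = 0.09), and that difference passed without RCO replicate 2 (limma adjusted p = 0.0089) or RCS replicate 1 (limma adjusted p = 0.008). Without RCO replicates 2 and 3, DDIT3 was 1.44 above controls in RCO (limma adjusted p = 0.014), and RCS stood at −1.15 against RCO (limma adjusted p = 0.0077). ATF3 rose by 2.69 in RCO (limma adjusted p = 0.0054) and by 1.42 in RCS (limma adjusted p = 0.044), the second in 3 of 10 fits that left out 1 array. Without RCO replicates 2 and 3 the RCO rise of ATF3 was 3.11 (limma adjusted p = 0.0097). Its control arrays ranged from 7.05 to 10.36, and RCS was 1.28 below RCO without passing (limma adjusted p = 0.11). That ATF3 difference passed without RCO replicate 2 (−1.64, limma adjusted p = 0.032) and without replicates 2 and 3 (−1.69, limma adjusted p = 0.038).

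**Figure D4:**
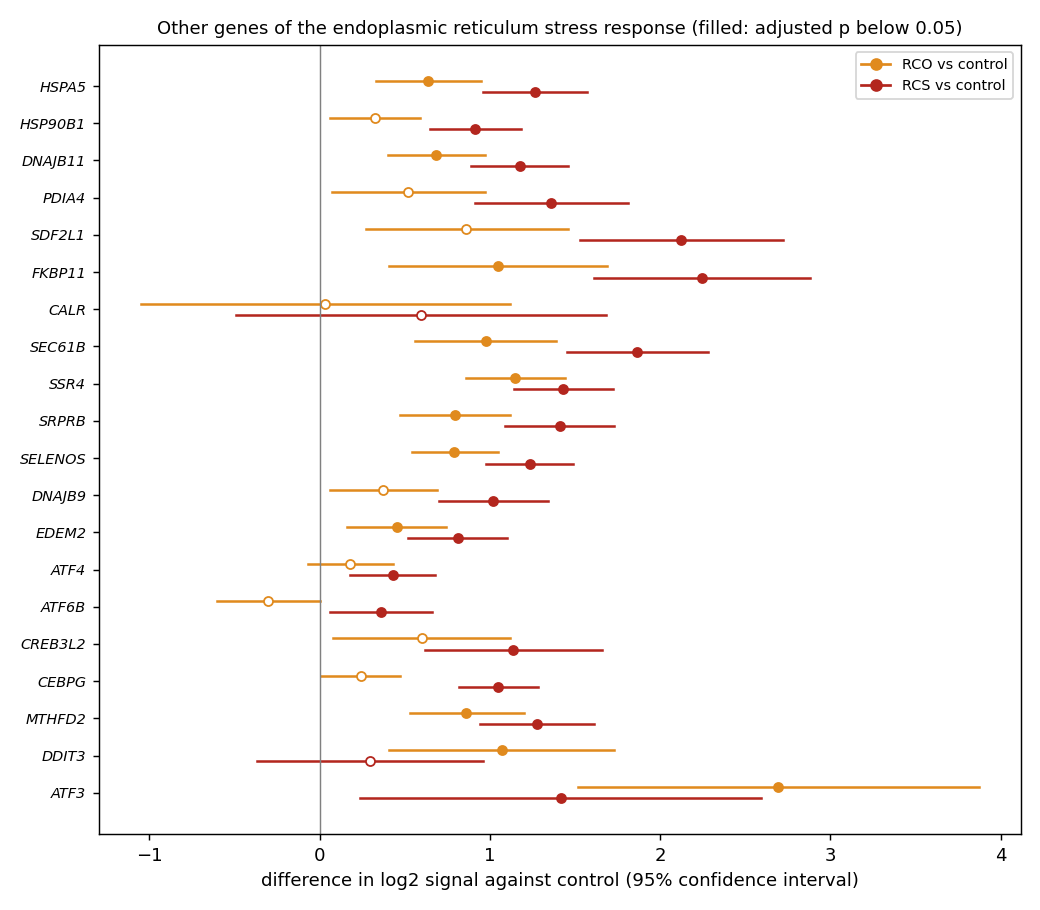
Log2 difference from the control mean, with 95% intervals, for named genes around the 6 in RCO and RCS; filled points passed at an adjusted p of 0.05. RCS points lie farther right than RCO points for HSPA5 (1.27 and 0.64) and FKBP11 (2.25 and 1.05), while for DDIT3 (0.30 and 1.07) and ATF3 (1.42 and 2.69) the RCO points lie farther right.

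Markers of other cell types also differed between groups. These are samples of bulk tissue, where more cells of a type and more RNA per cell cannot be told apart. The summed signal of 7 measured macrophage and monocyte markers had log2 values from 10.65 to 11.42 in controls. The ranges for SWOP, RCO and RCS were 10.74 to 11.48, 11.33 to 13.27 and 12.20 to 12.87. The highest RCO values were 13.27 in replicate 2 and 12.44 in replicate 3, the arrays with the highest CRELD2 and HYOU1 of that group. Of the 7 markers 5 were higher in RCS and 4 in RCO, and none passed in SWOP. Over all genes 28.8% were higher and 25.7% lower in RCS, and 11.3% and 4.26% in RCO. Without RCO replicates 2 and 3, the RCO count was 1 of 7. LAPTM5, a lysosomal protein of blood cells, rose by 2.61 and AIF1, a macrophage protein, by 2.12 in RCS (limma adjusted p = 1e-05 and 2.3e-06), while CD14 stood at 0.16 (limma adjusted p = 0.56). Fibroblast markers, 6 measured, had sums from 12.66 to 13.73 in controls, with SWOP, RCO and RCS at 13.39 to 13.70, 13.14 to 15.14 and 14.38 to 15.35. Of these, 4 of 6 were higher in RCS and 2 in RCO. The 4 were POSTN, LUM, FN1 and COL1A2. DCN and COL3A1 did not pass, with means of 12.46 and 7.61 in controls and 12.37 and 7.54 in RCS. The RCO count of 2 became 1 without control replicate 2 or RCO replicate 3.

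Smooth muscle markers, 3 measured, had sums from 11.65 to 12.44 in controls, with SWOP, RCO and RCS at 11.95 to 12.84, 12.01 to 13.61 and 13.09 to 13.83, and all 3 were higher in RCS. Shares of all genes higher were 4.66%, 11.3% and 28.8% in SWOP, RCO and RCS, and lower 3.5%, 4.26% and 25.7%. In SWOP and RCO 1 of the 3 was higher, CNN1, a calponin, which rose by 1.49 and 1.92 (limma adjusted p = 0.0065 and 2e-04). Endothelial markers, 5 measured, had none higher in SWOP, RCO or RCS against control, with sums from 11.78 to 11.99 in controls and at 11.79 to 12.25, 11.18 to 12.09 and 11.55 to 12.10 in SWOP, RCO and RCS. VWF, the von Willebrand factor, was 1 of 5 lower in RCO (−0.95, limma adjusted p = 0.041), a call that held in 3 of 10 fits that left out 1 array (adjusted p up to 0.08). VWF stood at −1.37 without RCO replicates 2 and 3 (limma adjusted p = 0.013). Of 3 measured plasma cell and B cell markers, JCHAIN, the joining chain of antibodies, rose by 2.58 in RCS and 2.20 in RCO (limma adjusted p = 0.00048 and 0.01), and in RCO without replicates 2 and 3 it stood at 1.22 (limma adjusted p = 0.074). TNFRSF17 and CD79B were dim, with mean signals below the 30th percentile, and CD79B fell by 0.43 in RCS (limma adjusted p = 0.001). The sums of this list went from 6.71 to 7.0 in controls, and for SWOP, RCO and RCS from 6.76 to 7.83, 7.18 to 10.07 and 7.73 to 9.38. Cardiomyocyte markers, 9 measured, had sums from 17.47 to 17.53 in controls, with SWOP, RCO and RCS at 17.43 to 17.52, 17.27 to 17.41 and 16.98 to 17.33. Of these, 7 of 9 fell in RCS, where 25.7% of all genes were lower. The part of these cell types in the changes of the 6 genes was not tested.

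Within groups the 6 genes moved together to unlike degrees. Over the 20 arrays Pearson's r was 0.93 between XBP1 and MANF and 0.92 between CRELD2 and HYOU1, and 0.56 between CANX and ERO1A. These values carry the group differences. After group means were removed r was 0.57 for XBP1 and MANF, 0.63 for CRELD2 and HYOU1, 0.75 for HYOU1 and CANX and 0.03 for MANF and ERO1A. The last was the lowest of all pairs, and the next lowest was 0.31, for MANF and CANX. RCO had the largest SD in all 6 genes, so its arrays weigh most in the values without group means. All these r values are descriptions over arrays that share a normalization and carry no p.

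By the same measure, 3 genes of 5675 candidates were most like each of the 6. XBP1 was nearest to LGALS1, a galectin (0.96, and 0.77 after group means were removed), GOLT1B, of Golgi transport (0.96 and 0.81), and REXO2 (0.96 and 0.69). MANF was nearest to LGALS1 (0.97 and 0.79), RPS12, a ribosomal protein (0.96 and 0.74), and GOLT1B (0.96 and 0.78). LGALS1 and GOLT1B thus stood in both lists. CRELD2 was nearest to CTSZ, a lysosomal protease (0.98 and 0.84), DNAJB11 (0.97 and 0.87) and TNFAIP8 (0.97 and 0.82). HYOU1 was nearest to HSP90B1 (0.97 and 0.86), CTSD, a lysosomal protease (0.96 and 0.81), and TFG, of export from the compartment (0.96 and 0.84). CANX was nearest to RRAGA (0.89 and 0.63), IPO5 (0.89 and 0.75) and SEPHS2 (0.88 and 0.65), and ERO1A to SLC2A5, a fructose transporter (0.97 and 0.88), CPM (0.96 and 0.74) and CCR1, a chemokine receptor (0.96 and 0.86).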

How the data were processed

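Per the labels, Trizol-extracted total RNA of 20 pig heart samples was made into biotin-labelled RNA, and each sample was read on a 1-colour porcine Affymetrix array. The authors deposited log2 values; the submitters' processing notes name RMA and MAS5 without versions or roles, and base 2 was taken from the range of values. No raw intensities were used here. From 24123 deposited probe sets 124 control spots were left out, and no filter on low signal was set. Symbols came from the platform's probe table: 1 symbol was listed for 10069 probe sets, several for 198 and none for 13732, and 9989 of 10297 entries matched a RefSeq gene identifier. A gene stands for its brightest probe set.

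All 20 arrays were fitted in limma 3.58.1 (R 4.3.3, lmFit and eBayes, 16 residual degrees of freedom) with 6 comparisons between 4 groups, and p-values were adjusted by Benjamini-Hochberg over 23999 probe sets, with a threshold of 0.05. Every adjusted p is from this fit unless an alternative is named, and a difference is in log2 signal. The median SE of a difference was 0.11, which the number of arrays limits. The fit was tested on simulated data with independent probe sets and the same spread in every group. That does not cover the uneven RCO group. Figures used matplotlib 3.10.9.

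The 6 genes and all lists were chosen with earlier results of these data known, so their counts are descriptions read against the share of all genes called. All probe sets of the 6 genes are named. From each list the genes of smallest p among those that passed were candidates for naming, up to 6 a comparison, with HSPA5, HSP90B1, CALR, PDIA4, DDIT3, ATF4, DNAJB9 and SDF2L1 whatever their values. Genes most alike were the 3 of highest Pearson r. PRKCSH, RCN2, QSOX1, PPP1R15A, PHGDH, SLC3A2, VLDLR, RNF5, CD14, DCN, COL3A1, TNFRSF17 and CD79B were named after their values were seen. Alternatives were quantile normalization, centring, a filter on dim probe sets, an intensity trend, array weights, a block on replicate number, fits of 2 groups alone and leaving out arrays. No sequence is shown.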

Additional observations from a re-analysis of the deposited data

Results flagged for a closer look

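In groups of 5 arrays, a lone value was marked where its gap to the nearest array was a large share of the range of its group (Dixon's test at 95%). Of 172 groups tested for the 6 genes and 32 others, 8 were marked, and chance marks about 1 in 20. Of the 6 genes only CANX was marked: its brightest probe set was at 11.70 in control replicate 3, with the next control at 11.48. DDIT3 was at 7.91 in RCO replicate 2, below a next value of 9.12, and at 8.04 in SWOP replicate 1, above a next value of 7.59. CALR was at 9.93 in RCO replicate 2, where the next array was at 8.46. SEC61G was at 10.39 in control replicate 3 against a next value of 9.87. SDF2L1 was at 6.33 in SWOP replicate 5, TMBIM6 at 11.53 in SWOP replicate 2 and NFYC at 8.73 in RCS replicate 2, each the lowest of its group, with next values of 6.86, 11.70 and 9.14.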

How the results depend on the processing

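Against control, the 6 RCS calls held in all 18 alternatives run for each gene. Over the 36 gene differences 648 of 696 values kept their direction and their side of the threshold. In every alternative 19 of the 36 differences did so. These were 0 of 6 for SWOP, 2 of 6 for RCO and 6 of 6 for RCS against control. Against SWOP they were 2 of 6 for RCO and 5 of 6 for RCS, and RCS against RCO had 4 of 6. RCO against control gave 4 of the 6 genes, 3 under array weights and 3 with the 2 groups fitted alone (ERO1A lost in both), 3 to 5 when 1 array was left out and 2 without RCO replicates 2 and 3 together. RCO against SWOP gave 3, with 1 when these groups were fitted alone and 1 without RCO replicates 2 and 3. SWOP against control gave 0, with 4 under array weights, 4 with these groups fitted alone (1 of them, ERO1A, lower) and 1 without RCO replicate 1 and SWOP replicate 1, where HYOU1 passed at 0.41. Signs turned for CANX, RCO against control, at −0.068 (quantile normalization), −0.026 (without RCO replicate 3) and −0.076 (without RCO replicates 2 and 3), and for HYOU1, RCO against SWOP, at −0.034 and −0.189 without the same arrays. When 1 array was left out these differences ran from −0.026 to 0.079 and from −0.034 to 0.3. CANX, RCS against SWOP, passed under quantile normalization, array weights, the replicate block and the groups fitted alone (adjusted p from 0.034 to 0.044).

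Counts of all probe sets moved more. SWOP against control had 1716, with 957 under quantile normalization, 5710 with array weights, 4091 fitted alone and 480 to 2023 when 1 array was left out (567, 480 and 903 without control replicates 2, 4 and 5; 660, 856, 528 and 670 without SWOP replicates 2, 3, 4 and 5). RCO against control had 2571, with 564 fitted alone, 1135 without RCO replicates 2 and 3 and 1323 to 4251 when 1 array was left out (1528 without control replicate 2, 1323 and 4251 without RCO replicates 3 and 5). RCO against SWOP had 2414, with 863 fitted alone and 1006 to 2988 when 1 array was left out (1376 without RCO replicate 3; 1093, 1369, 1375 and 1006 without SWOP replicates 2, 3, 4 and 5). RCS against RCO had 4572, with 931 fitted alone, 9052 without RCO replicates 2 and 3, 2951 without RCO replicate 1 and SWOP replicate 1 and 2053 to 7448 when 1 array was left out (2945, 7448 and 2410 without RCO replicates 1, 2 and 5, 2053 without RCS replicate 3). The cause of these shifts was not tested.

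The labels give the replicate numbers no meaning beyond naming samples, so the arrays were not treated as paired. In none of the 6 pairs of groups did all 5 same-numbered pairs correlate above 0.1 in their deviations from the group means. That is a strict rule, so it cannot show that pairing is absent. RCS and RCO came closest, from 0.077 to 0.44, with 4 of 5 above 0.1 and 3 of 5 best with their own number. RCO and SWOP had 3 of 5 above 0.1 and 3 of 5 best with their own number. RCO and control had 1 of 5 above 0.1 and 3 of 5 best with their own number. In the other pairs of groups 0 to 2 of 5 were best with their own number. A block on replicate number gave 0, 4, 6, 3, 6 and 5 of the 6 genes for SWOP, RCO and RCS against control, RCO and RCS against SWOP and RCS against RCO, and 2119, 3061, 11796, 2860, 7434 and 5275 probe sets.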
